A study of Homo sapiens with 4 samples.

Results

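CD48, its receptor CD244 and 7 further genes of the SLAM (signaling lymphocytic activation molecule) family, SLAMF1, SLAMF6, SLAMF7, SLAMF8, LY9, CD84 and the adaptor gene SH2D1A, were followed in U937 cells that express AML1/ETO. Members were all probe sets annotated to these 9 genes, which gave 28 probe sets out of 41097 that have 1 gene symbol, and 9 genes out of 19775. They were chosen by the measured signals of the 2 lines, since the ligand CD48 and the receptor CD244 moved in opposite directions on these arrays. The values of that contrast are therefore given as a description, and nothing is tested on them. U937 is an established human line, which the paper counts among myeloid cell lines. U937-AE cells are a single clone that carries HA-tagged AML1/ETO, the fusion protein of the t(8;21) translocation, in a vector with the mouse metallothionein promoter. The control line, U937-Mt, is a bulk population transfected with the vector without insert. Both lines were kept in 100 µM ZnSO4 for 8 hours, which induces the transgene in U937-AE, before RNA was taken. Each line gave 3 RNA extractions that were combined into 1 pool, and 2 Affymetrix arrays of the HG-U133 Plus 2.0 type were hybridized with it. The 4 arrays thus represent 1 pool per cell line. The spread between array copies covers hybridization error only, no test between the lines is possible, and the effect of AML1/ETO cannot be told apart from that of selecting a clone.

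The SLAM receptors are immunoglobulin superfamily proteins of leukocytes, and most of them bind a copy of themselves on the neighboring cell. CD48 differs from the others in structure, since it has no cytoplasmic tail and is held in the membrane by a lipid anchor, and it is the ligand of CD244, also called 2B4, which is best known from natural killer cells and is also found on monocytes. Tyrosine motifs in the tails of CD244, SLAMF1, SLAMF6, LY9 and CD84 recruit the small adaptor SH2D1A (SAP), which brings in the kinase FYN, and inhibitory phosphatases can occupy the same motifs. Mutations of SH2D1A cause X-linked lymphoproliferative disease.

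The genes of the receptors lie together. In the GRCh38.p14 annotation of RefSeq, SLAMF6, CD84, SLAMF1, CD48, SLAMF7, LY9 and CD244 follow each other in this order within 378 kb of chromosome 1, from 160485036 to 160862887, and 7 of the 8 protein-coding genes annotated there are members, the remaining one being LOC124904439, whose span lies inside that of CD48. SLAMF8 starts 658 kb before SLAMF6, and SH2D1A is on chromosome X. CD48 and CD244 lie 118 kb apart. RefSeq promoter windows, which reach from 250 bases before to 50 bases after the start of a gene, were matched for 6 members (CD48, CD244, SLAMF1, SLAMF6, SLAMF8 and SH2D1A). The windows of CD48 and CD244 are shown because these are the genes whose signals differed between the lines. Both genes are on the minus strand, and capitals mark E-boxes, CANNTG, the letters that E-proteins such as HEB recognize.
CD48, chr1:160711773-160712072, minus strand: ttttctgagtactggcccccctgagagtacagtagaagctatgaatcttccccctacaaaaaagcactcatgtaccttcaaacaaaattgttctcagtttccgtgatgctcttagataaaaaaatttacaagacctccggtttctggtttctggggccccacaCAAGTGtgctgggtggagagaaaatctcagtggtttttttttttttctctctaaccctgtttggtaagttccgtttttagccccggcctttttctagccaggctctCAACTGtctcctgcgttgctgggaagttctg
CD244, chr1:160862838-160863137, minus strand: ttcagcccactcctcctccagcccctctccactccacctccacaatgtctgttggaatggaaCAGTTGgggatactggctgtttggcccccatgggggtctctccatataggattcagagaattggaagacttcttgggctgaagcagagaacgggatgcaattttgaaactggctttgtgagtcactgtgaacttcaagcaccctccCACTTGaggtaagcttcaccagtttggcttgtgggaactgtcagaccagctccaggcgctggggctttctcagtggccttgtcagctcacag

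Each of these windows holds 2 E-boxes and neither TGTGGT nor TGCGGT, the core letters of the AML1 site, on either strand. E-boxes were in 68.7% of all 35116 promoter windows, and TGTGGT or TGCGGT in 19.6%, so the letters do not set the windows of CD48 and CD244 apart. Of the other matched windows, that of SLAMF8 holds 3 E-boxes and 1 TGTGGT on the opposite strand (ACCACA), that of SH2D1A 2 E-boxes, that of SLAMF1 1 E-box, and that of SLAMF6 none of these motifs. A match is a description of the letters and not of binding. The primers with which the study amplified the CD244 promoter after chromatin immunoprecipitation, shown because they place its amplicon in this window, were found on both sides of the start.
CD244 forward primer: agtttggcttgtgggaactg
CD244 reverse primer: gacaaggccactgagaaagc

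Together with the bases between them they span 63 bases, which contain no E-box and begin 22 bases before the start. Neither CD48 primer of the study lies fully in the CD48 window, whose end holds the first 16 bases of the forward primer. By this PCR, the paper reports AML1/ETO at the promoters of CD48 and CD244, and more HEB there in U937-AE. It classes CD48 as upregulated and CD244 as downregulated by AML1/ETO. The chromatin arrays and PCR were not analysed here.

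U937-AE cells had more CD48 and less CD244 signal than U937-Mt cells. CD48 (204118_at) gave signals of 1331 and 1359 for U937-AE, against 296.5 and 354.8 for U937-Mt. CD244 (220307_at) gave 104.4 and 78.6 for U937-AE, against 359.6 and 385.7 for U937-Mt. The lines did not overlap for either gene, and the higher array copy exceeded the lower by at most 1.20-fold for CD48 and 1.33-fold for CD244. Signals below the median of their array (119.5 and 129.7 in U937-AE, 146.8 and 153.6 in U937-Mt) were raised to that median, the floor, before log2 was taken, so both U937-AE values of CD244 are at the floor and its fold is a lower bound. CD48 was 4.15-fold higher in U937-AE, with 3.75 to 4.58 as the range of the 4 comparisons between single arrays of the lines, a log2 difference of 2.05 ± 0.15 (SD over the 4 comparisons). CD244 was at least 2.99-fold lower in U937-AE (2.77 to 3.23) on the deposited scale, a log2 difference of -1.58 ± 0.090. Without a floor its signals were 4.11-fold lower. Other scalings of the arrays gave smaller folds for CD244 (2.36 to 2.57). In RNA of whole cultures, fewer cells with a transcript and less of it per cell cannot be told apart.

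CD48 was called higher and CD244 lower under each of the 3 other scalings of the arrays that were tried. On the scale of the deposited signals, the log2 differences of CD48 and CD244 were at least 3.63 apart, since CD244 is at the floor in U937-AE. This corresponds to a shift of at least 12.4-fold of 1 gene relative to the other. With no floor they were 4.09 apart (17.0-fold). Multiplying all signals of an array by a constant leaves this distance as it is, whereas quantile normalization does not. After quantile normalization CD48 had a log2 difference of 2.13 and CD244 of -1.36. With the arrays scaled to their 18 hybridization spike-in probe sets, which were brighter on the U937-Mt arrays, the values were 2.40 and -1.24, and both genes were still past 1.5-fold in all 4 comparisons. With the floor raised to the 75th percentile of each array, CD244 had a log2 difference of -0.10 and was not called, because its signals were then at the floor on all 4 arrays.

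A probe set or gene is said to be called when all 4 comparisons were past 1.5-fold in 1 direction. Of the 28 member probe sets, 1 was called higher, 1 lower and 26 were not called. Over all probe sets of 1 gene, 1.52% were called higher and 3.07% lower, 4.59% in all. A gene was represented by its brightest probe set, and of the 9 member genes CD48 was called higher, CD244 lower and 7 were not called. Of the 12934 measured genes, which are those whose mean log2 signal reached the mean floor in at least 1 pool, 8.71% were called, 2.60% higher and 6.12% lower. The members were picked for CD48 and CD244, so nothing can be read from their share. Of the member genes, 7 were measured (median log2 difference -0.15, against -0.10 over all measured genes), and SLAMF7 and SH2D1A were not. Raw signals of the lines did not overlap for 3 member probe sets that were higher and 9 that were lower in U937-AE, beside 19.1% higher and 32.4% lower (51.5% in all) of all probe sets of 1 gene.

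Each of CD48 and CD244 had a further probe set that detected little. The second probe set of CD48 (237759_at) gave 25.7 and 27.1 for U937-AE against 33.9 and 62.8 for U937-Mt. The second probe set of CD244 (234320_at) gave 40.1 and 21.0 for U937-AE against 88.4 and 40.1 for U937-Mt. All of these signals were below the floor, so each gene rests on 1 probe set. Since the floors are higher in U937-Mt, signals that never exceed them give a log2 difference of -0.27 from the floors alone, and 12 of the 28 member probe sets were of this kind, while 8 were above the floor on all arrays and 8 on some.

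The self-binding receptors that were above the floor differed less between the lines than CD48 and CD244. SLAMF6 (1552497_a_at), a receptor of T, B and natural killer cells, gave 400.5 and 632.0 for U937-AE against 603.4 and 519.1 for U937-Mt. The lines overlapped, and its log2 difference was -0.15 ± 0.40. LY9, also known as CD229, had 303.7 and 291.0 for U937-AE against 215.8 and 289.6 for U937-Mt on its brightest probe set (231124_x_at), a log2 difference of 0.25 ± 0.25. A second probe set of LY9 (210370_s_at) gave 167.3 and 179.2 for U937-AE against 168.1 and 166.4 for U937-Mt, a log2 difference of 0.050 ± 0.058. On another (215967_s_at), the 2 copies of the U937-AE pool were 6.01-fold apart, at 202.7 and 33.7, against 227.0 and 319.2 in U937-Mt. The probe sets of LY9 thus gave log2 differences of 0.25, 0.05 and -0.73, and none was called. The suffix _x_at marks probe sets whose probes can bind other transcripts, and 6 of the 28 member probe sets carry it.

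CD84, a receptor of myeloid cells, platelets and lymphocytes, had lower values in U937-AE on its brighter probe sets without being called. Its brightest probe set (230391_at) gave 479.6 and 312.9 for U937-AE against 562.9 and 591.2 for U937-Mt, a log2 difference of -0.57 ± 0.36 (1.17-fold to 1.89-fold lower over the 4 comparisons). The next (205988_at) gave 356.4 and 361.2 for U937-AE against 425.9 and 476.3 for U937-Mt, a log2 difference of -0.33 ± 0.094. The lines did not overlap on either probe set, but neither reached 1.5-fold in all comparisons. Without the first U937-AE array, which has the higher of the 2 signals, CD84 was called lower (log2 difference -0.88), and without the second it was not (-0.27). Of the other 6 probe sets of CD84, 3 never exceeded the floor, and 3 (211189_x_at, 244352_at and 211190_x_at) gave log2 differences of -0.02, -0.48 and -0.12. The raw signals of 211190_x_at went the other way, with 147.1 and 76.6 for U937-AE against 44.8 and 71.5 for U937-Mt. Only its first U937-AE signal was above the floor, so its negative value comes from the floors.

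SLAMF1, the founding receptor of the family and an entry receptor of measles virus, was near the floor. Its brightest probe set (206181_at) gave 197.1 and 170.5 for U937-AE against 154.2 and 176.7 for U937-Mt, a log2 difference of 0.15 ± 0.17 with overlapping lines. Another (239427_at) gave 193.9 and 153.1 for U937-AE against 54.3 and 302.3 for U937-Mt, where the copies of 1 pool were 5.57-fold apart. The last (1555626_a_at) exceeded the floor on the second U937-Mt array only, with 82.5 and 81.8 for U937-AE against 77.3 and 180.7 for U937-Mt. These copies differ by more than the lines do, so no direction can be given for SLAMF1.

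SLAMF8, which lacks the tyrosine motifs of its relatives and is found on macrophages, was not called. Its brighter probe set (219385_at) gave 103.7 and 77.5 for U937-AE against 242.9 and 113.0 for U937-Mt, and only the first U937-Mt array was above its floor. The log2 difference was -0.63 ± 0.39, and the 4 comparisons ran from 1.18-fold to 2.03-fold lower. Both comparisons with the second U937-Mt array set floor against floor and were under 1.5-fold. Without the second U937-Mt array it was called lower (-0.96), and without the first its value was -0.30. SLAMF7 (CRACC, a receptor of plasma cells and natural killer cells) was below the floor on all 4 arrays with each of its 3 probe sets, the brightest (219159_s_at) at 32.4 and 40.1 for U937-AE against 86.9 and 57.5 for U937-Mt.

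The adaptor SH2D1A was not detected above the floor beyond single arrays. Its brightest probe set (211210_x_at) gave 138.0 and 46.7 for U937-AE against 114.1 and 156.8 for U937-Mt, so that 1 array of each line was above its floor. The other 3 were below the floor throughout, and the lines still did not overlap on 210116_at, with 13.8 and 5.8 for U937-AE against 58.8 and 69.4 for U937-Mt. That probe set was called lower when the floor was left out or set at the 25th percentile. SH2D1B, the related adaptor EAT-2, was below the floor on all 4 arrays with both of its probe sets, the highest signal being 140.6 in U937-Mt.

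The genes around CD48 and CD244 were read from the same arrays. Of 42 listed neighbors from DUSP23, whose midpoint is 914 kb before that of CD48, to SDHC, 644 kb after it, 33 had a probe set that names 1 gene and 20 were measured. None was called higher, 1 was called lower and 19 were not called, which is 5% called beside 8.71% of all measured genes, so the neighbors are not set apart by this count. Their median log2 difference was -0.02. The gene called lower was ARHGAP30, with 1270 and 1173 for U937-AE against 2278 and 2281 for U937-Mt (log2 difference -0.90 ± 0.066). It was not called with the arrays shifted to the same median (-0.63) or scaled to the spike-ins (-0.56). Nor was it called at 2-fold or with the mean of its probe sets (-0.58). The methods' t-test, which also asks for a mean difference past 2-fold, could not call it. The highest value was that of TOMM40L (0.67), whose U937-Mt signals were 61.1 and 469.3. ITLN1, the listed neighbor next to CD244, was at the floor on all 4 arrays. CD48 and CD244 were called, whereas SLAMF7 and LY9 between them, and SLAMF1 and CD84 on the other side of CD48, were not called.

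The closest relatives outside the members were not called. CD58, the ligand of CD2 and a paralog of CD48, gave 1296 and 1289 for U937-AE against 915.0 and 1042 for U937-Mt, a log2 difference of 0.40 ± 0.11. CD2 itself gave 184.0 and 146.2 for U937-AE against 251.9 and 211.3 for U937-Mt (-0.49 ± 0.24). SLAMF9 gave 89.9 and 37.9 for U937-AE against 258.2 and 141.3 for U937-Mt (-0.68 ± 0.44), with 1 U937-Mt array above the floor. Under all alternatives tried, only SLAMF9 changed in call, being called lower when the second U937-Mt array was left out (-1.05), with no floor (-1.71), with the floor at the 25th percentile (-1.69) and by the mean difference alone.

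Among the proteins that act behind SLAM receptors, PTPN6, SH3BP2 and VAV2 were lower and CBL and PLCG1 higher in U937-AE. Of 26 listed genes, SH2D1A included, 25 were matched and 22 measured, of which 2 were called higher, 3 lower and 17 not called, beside 2.60% higher and 6.12% lower among all measured genes. The median log2 difference of the measured genes was -0.47. With arrays shifted to the same median or scaled to spike-ins, 4 were called higher and 3 lower. Over all matched genes the median was -0.29, against -0.02 with the same median and 0.05 scaled to spike-ins. PTPN6, the phosphatase SHP-1, gave 891.4 and 894.6 for U937-AE against 2336 and 2413 for U937-Mt, which is 2.66-fold lower (2.61 to 2.71). SH3BP2, an adaptor that binds the tail of CD244, gave 348.5 and 426.8 for U937-AE against 1031 and 1223 for U937-Mt, which is 2.91-fold lower. VAV2 had 151.3 and 131.7 for U937-AE against 300.4 and 309.2 for U937-Mt, 2.16-fold lower, and was not called when the floor was the 75th percentile. Its relative VAV1 was not called (-0.64 ± 0.19). In the other direction, the ubiquitin ligase CBL, at 5890 and 5382 for U937-AE against 3047 and 2849 for U937-Mt, was 1.91-fold higher, and the phospholipase PLCG1, at 897.1 and 918.0 for U937-AE against 553.3 and 451.8 for U937-Mt, was 1.82-fold higher. At 2-fold in all 4 comparisons, none of CBL, PLCG1 and VAV2 was called. Nor were they called with the median of all probe sets of the gene, or with their mean (0.64 for CBL, 0.29 for PLCG1 and -0.55 for VAV2). CBL and PLCG1 could not pass the methods' t-test, which also asks for a mean difference past 2-fold. The inositol phosphatase INPP5D (-0.47 ± 0.078) and the phosphatase PTPN11 (0.11 ± 0.019), both of which can bind SLAM tails, were not called.

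FYN, the kinase that SH2D1A recruits, was at the edge of the rule. Its brightest probe set (210105_s_at) gave 2297 and 2607 for U937-AE against 3691 and 3675 for U937-Mt, 1.41-fold to 1.61-fold lower over the 4 comparisons, and was not called. Another (216033_s_at) gave 770.5 and 796.4 for U937-AE against 1317 and 1420 for U937-Mt and was past the rule, at 1.65-fold to 1.84-fold lower. On 212486_s_at the lines overlapped, with 342.8 and 388.3 for U937-AE against 397.8 and 357.2 for U937-Mt. Without the second U937-AE array, FYN was called lower (-0.68), as it was by the mean difference alone and by limma. It was not called with the mean or the median of its probe sets (-0.43 and -0.05). The paper names FYN among the repressed genes with AML1/ETO at the promoter.

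CD244 is one of several activating receptors of natural killer cells, and genes of the others and of their ligands gave values in both directions. Of 26 listed genes, 23 were matched and 17 measured, with 3 called higher, 2 lower and 12 not called, beside 8.71% called among all measured genes (median log2 difference -0.13). ULBP2, a stress-induced ligand of the receptor NKG2D, gave 2030 and 2349 for U937-AE against 889.7 and 751.1 for U937-Mt, which is 2.67-fold higher. Its relative ULBP1 gave 165.5 and 184.5 for U937-AE against 333.8 and 302.0 for U937-Mt, 1.82-fold lower, and was not called with any of the 3 other scalings of the arrays (-0.65 to -0.52). CADM1, the ligand of CRTAM, gave 516.2 and 455.4 for U937-AE against 50.9 and 221.4 for U937-Mt, 2.69-fold higher. Its first U937-Mt signal was below the floor, and it lost the call with a floor at the 75th percentile (-0.02) and with the mean of all its probe sets (0.35). HLA-E, the ligand of receptors that contain CD94, was 1.55-fold higher (1.51 to 1.58) and was not called after quantile normalization (0.51). Nor was HLA-E called at 2-fold or with the median of its probe sets (0.50). Its mean difference was also below the 2-fold that the methods' t-test asks for. The adaptor TYROBP, at 102.6 and 111.5 for U937-AE against 392.4 and 350.9 for U937-Mt, was at least 2.98-fold lower on the deposited scale. Both U937-AE arrays were at the floor, as for CD244. With the floor at the 75th percentile neither TYROBP nor ULBP1 was called (-0.10 each), which left no gene of this list called lower.

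**Figure D1:**
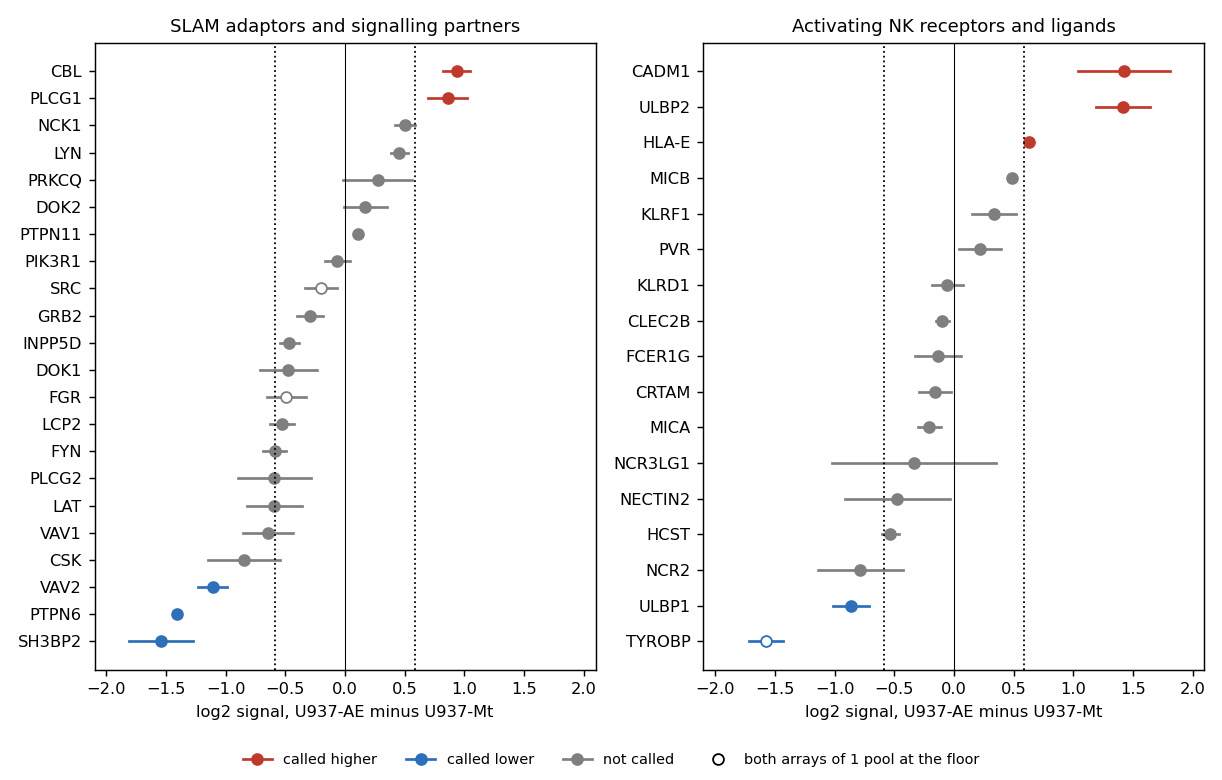
Log2 difference of signals, U937-AE minus U937-Mt (x axis) of the measured genes behind SLAM receptors (left) and of the measured activating natural killer receptors and ligands (right), with bars from the lowest to the highest of the 4 comparisons, dotted lines at 1.5-fold, and open dots where both arrays of 1 pool were at the floor. SH3BP2 and PTPN6 are lowest on the left, CBL and PLCG1 highest, and on the right TYROBP is lowest and CADM1 and ULBP2 highest.

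The labels and the identity of the cells were checked on the same arrays. A probe set of RUNX1T1, the gene of ETO (216831_s_at), gave 1362 and 1299 for U937-AE against 8.6 and 7.6 for U937-Mt. Its other 6 probe sets were not called higher or lower, and whether they cover the cloned part was not analysed here. Of 5 T cell markers, 4 (CD3D, CD3E, CD3G and CD5) never exceeded the floor, and CD8A was above it on 1 U937-AE array. Among 6 natural killer markers, NCR1, KLRB1 and GNLY never exceeded the floor, NCAM1 and KLRF1 were above it on all and were not called, and NKG7, a protein of cytotoxic granules, was at 127.1 and 24.1 for U937-AE against 882.8 and 1008 for U937-Mt and was called lower. The summed signal of these 6 markers was 2083 and 1769 for U937-AE against 2474 and 2639 for U937-Mt. Without NKG7, the other 5 summed to 1956 and 1745 for U937-AE against 1591 and 1631 for U937-Mt, so the lower sum comes from NKG7. Of 4 matched B cell markers, CD79A and CD79B, of the B cell receptor, were above the floor on all arrays. MS4A1 was above it on the U937-AE arrays only, and PAX5 on the second U937-AE array only. None of these B cell markers was called. NKG7 moved in the same direction as CD244, and its part in that result was not tested. Of 10 matched monocytic and myeloid markers, CD4, FCGR2A, CSF1R, LYZ, MPO, SPI1 and CEBPA were above the floor on all arrays, whereas CD14, FCGR1A and CD36 were at it on all, and LYZ, MPO, SPI1 and CEBPA were called lower in U937-AE. LYZ lost this call with the arrays shifted to the same median (-0.76) or scaled to the spike-ins (-0.69), at 2-fold, and without x_at and s_at probe sets (-0.93). The summed signal of the 10 was 7870 and 7504 for U937-AE against 29123 and 27514 for U937-Mt. Most of this lower sum comes from MPO and CEBPA. MPO gave 1898 and 1558 for U937-AE against 16117 and 14591 for U937-Mt. CEBPA gave 735.5 and 898.3 for U937-AE against 5821 and 5546 for U937-Mt. CD4, FCGR2A and CSF1R were not called. Whether the lower myeloid markers have a part in the signal of CD244 was not tested. Over all genes, 336 were called higher and 791 lower, so that 70.2% of calls were lower, against 62.1% after quantile normalization, 29.8% with the arrays shifted to the same median and 17.5% with scaling to the spike-ins. Pearson's r of log2 signals was 0.935 for the copies of the U937-AE pool, 0.919 for those of the U937-Mt pool and 0.910 to 0.916 between lines.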

How the data were processed

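The authors hybridized the labeled RNA pool of each cell line to 2 HG-U133 Plus 2.0 arrays and deposited 1 linear signal intensity per probe set and array, computed with GCOS at default settings (version not given in the sources used here). There are 54675 probe sets in the table, including 62 controls. Gene symbols came from the platform annotation, updated through the gene identifier for 41043 of 41097 probe sets with 1 symbol. A further 1801 have several symbols and name no gene here, and none of these names a member.

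Deposited intensities under the 50th percentile of their array were set to that percentile before taking log2. A gene took its probe set of highest mean log2 signal. The call, all 4 comparisons past 1.5-fold, follows the way the study set arrays against each other and was tested on simulated data. Changes were simulated in bright genes only, so the test does not cover changes near the floor, as in CD244. Differences are U937-AE minus U937-Mt. No p-value is given for the lines, since each is 1 pool, and the number of arrays limits the precision. The text names all 9 members, CD2, CD58, SLAMF9, SH2D1B and FYN, called genes of the lists and RUNX1T1. Other listed genes (VAV1, INPP5D, PTPN11, TOMM40L, ITLN1 and uncalled markers) were named after their values were seen. The members and lists were chosen with earlier results of these data known. Alternatives were other scalings, floors, call rules and choices of probe set, limma with and without the array number as a block, the methods' t-test, and leaving out each array. Proteins were not analysed here. Sequences are from RefSeq (GRCh38.p14). The software was limma 3.58.1 in R 4.3.3, and numpy 2.4.6, pandas 2.3.3, scipy 1.17.1 and matplotlib 3.10.9 in Python 3.11.15.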

Additional observations from a re-analysis of the deposited data

How the results depend on the processing

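CD48 was called in 19 of 20 alternatives (log2 difference 0.89 to 2.40) and CD244 in 18 (-2.04 to -0.10). Alternatives that change only the call rule leave the log2 difference as it is. The members were chosen for the opposite directions of CD48 and CD244, so the signs of these genes across alternatives are no further support. The methods' t-test followed by Benjamini-Hochberg adjustment called neither (2.05 and -1.58), no member, no listed gene and no gene at all, against 131 genes higher, 385 lower and 6 listed genes before the adjustment (11 listed genes by the rule of the report). With the floor at the 75th percentile CD244 (-0.10) was lost, so that 1 member gene and 1 member probe set were called, with 7 listed genes and 373 genes lower. Calls over all genes were 911 higher and 387 lower with the arrays shifted to the same median, 1369 and 290 scaled to the spike-ins, 577 and 1687 with no floor, 1345 lower with the floor at the 25th percentile, 98 and 263 at 2-fold (5 listed genes), and 624 and 1806 for the mean difference (20 listed genes, 4 member probe sets). The mean over all probe sets of a gene gave 186 higher (6 listed genes) and their median 223 (5 listed genes). In these means, which take in the dim second probe sets, CD48 was at 0.89 and CD244 at -0.93. limma gave 513 higher and 1142 lower without a block, and its p-values and those of the t-test speak only for array copies. The median log2 difference of all genes was -0.27, against 0.00 with the arrays shifted to the same median and 0.073 scaled to the spike-ins.

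The labels number the replicas and do not say that same-numbered arrays belong together. Deviations of same-numbered arrays correlated with r = 0.057. With the replicate block, limma called 570 genes higher and 1433 lower, against 513 and 1142 without it. The block gave 4 called member probe sets, with CD48 and CD244 as before. Leaving out each array gave 456 to 557 genes higher, 1137 to 1590 lower (1590 without the first U937-Mt array) and 2 to 5 member probe sets called, while CD48 stayed at 1.92 to 2.18 and CD244 at -1.64 to -1.52. Of the other members, SLAMF1, SLAMF6, SLAMF7, LY9 and SH2D1A changed sign between alternatives, so no direction is given for them, and signals near the floor limit SLAMF7, SLAMF8 and SH2D1A.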
